A study of Mus musculus with 9 samples.

Results

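The genes described here are the 3 osteocalcin paralogs Bglap, Bglap2 and Bglap3, 3 further genes of Gla proteins (Mgp, Gas6 and Pros1), and the enzymes Ggcx and Vkorc1 that act on the vitamin K dependent step. They were chosen by name, with earlier results of these data known. All 8 were found among the 39179 genes listed and passed the filter on low counts, which left 13418 genes. A Gla protein carries glutamate residues that have been carboxylated after translation, which lets it bind calcium. GGCX, the gamma-glutamyl carboxylase, adds the carboxyl groups using reduced vitamin K, and VKORC1 returns the oxidised vitamin to its reduced form. Osteocalcin is secreted by osteoblasts and binds to bone mineral, matrix Gla protein restrains calcification of cartilage and vessel walls, and GAS6 and protein S are ligands of the TAM receptor tyrosine kinases.

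RNA came from capillaries with their surrounding cells, cut by laser microdissection (LMD) from the ossification front (OF) of femurs, 5 from juvenile animals (4 weeks old) and 4 from adult animals (12 weeks old). All mice carried the reporter transgene Tg(TIE2GFP)287Sato/J, in which the Tie2 promoter drives GFP in endothelial cells, with C57BL/6 given as mouse origin, and no treatment was given in the labels. GFP guided the cutting, so the samples held endothelial cells together with whatever cells lay next to them. The question was how the cells around growing and mature capillaries differ in expression. Library totals ranged from 4856833 to 7398483 counts in juvenile and from 5821596 to 8077362 counts in adult libraries, so that 3 counts correspond to between 0.371 and 0.618 CPM, the usual unit of counts scaled to a common library total, a limit that covers counting error only. Levels below are CPM after scaling by the trimmed mean of M values (TMM), and fold changes are adult over juvenile.

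The libraries did not all share the same sex-linked pattern. Juvenile libraries 4 and 5 had 11 and 1 counts on Xist and 1099 and 978 counts on 4 Y-linked genes, whereas the other 7 libraries had at least 2965 counts on Xist and at most 5 on the Y-linked genes. All 4 adult libraries were thus of the Xist pattern, and the part of this difference in the comparison of ages was not tested beyond leaving out both libraries. Adult libraries also varied more than juvenile ones in markers of blood cells and cartilage, as given below.

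Of the 8 genes, 3 were higher in adult mice (1.89% of all genes tested) and 2 were lower (1.99% of all genes tested), giving 5 past an adjusted p of 0.05 in the edgeR quasi-likelihood test against 3.88% of the genes tested. The same 5 genes, Bglap, Bglap2, Gas6, Ggcx and Vkorc1, were those whose levels did not overlap between the ages (9.15% of all genes tested). The median log2 fold change was 0.81 over the 8 genes and 0.01 over all genes tested. The paralogs share sequence and are not independent of each other. Because the genes were chosen with earlier results of these data known, the shares over all genes are no independent yardstick. Without juvenile libraries 4 and 5, 0 of the 8 passed the threshold, beside 0.526% of the 13876 genes tested in those 7 libraries. The log2 fold changes of the 5 genes there were 1.83, 2.30, 1.21, -1.55 and -0.76, against 2.04, 2.38, 1.15, -1.52 and -0.78 with all libraries.

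Osteocalcin was the most abundant transcript among them. Bglap measured 2421, 1379, 1365, 859.8 and 1412 CPM in juvenile libraries 1 to 5 and 9410.4, 2514, 9452 and 3075 CPM in adult libraries 1 to 4. Every adult library was above every juvenile library, but adult libraries 1 and 3 lay far above adult libraries 2 and 4, and adult library 2 came close to juvenile library 1. The mean was 1487 ± 569.7 CPM (SD, n = 5) in juvenile and 6113 ± 3839 CPM (SD, n = 4) in adult mice (log2 fold change 2.04, SE 0.40, edgeR adjusted p = 0.0151). Bglap2 measured 447, 297, 272, 212 and 367 CPM in juvenile libraries 1 to 5 and 2774, 469, 2343 and 1073 CPM in adult libraries 1 to 4. Its order among adult libraries was nearly that of Bglap, with library 2 lowest and libraries 1 and 3 highest, and the ages did not overlap (log2 fold change 2.38, SE 0.41, edgeR adjusted p = 0.00827). Bglap3 measured 62.7, 30.7, 30.9, 13.1 and 25.2 CPM in juvenile libraries 1 to 5 and 231, 56.3, 92 and 70.4 CPM in adult libraries 1 to 4. Here adult library 2 lay below juvenile library 1, and the difference did not pass the threshold (log2 fold change 1.79, SE 0.47, edgeR adjusted p = 0.0514). With each library left out, the log2 fold change of Bglap3 lay between 1.18, without adult library 1, and 2.17, and 2 of the 9 fits passed (edgeR adjusted p between 0.0286 and 0.136). Per kilobase of merged exons, the mean levels were 2407, 678 and 12.4 CPM for Bglap, Bglap2 and Bglap3 in juvenile mice and 9891, 3534 and 42.8 CPM in adult mice. On this scale Bglap ranked 17 among the tested genes in juvenile and 3 in adult mice. The merged exons of Bglap, Bglap2 and Bglap3 are 618, 471 and 2629 bases long, and their coding transcripts with 4 exons 440, 471 and 717 bases. Levels per kilobase of Bglap and above all of Bglap3 therefore depend on the length used.

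**Figure D1:**
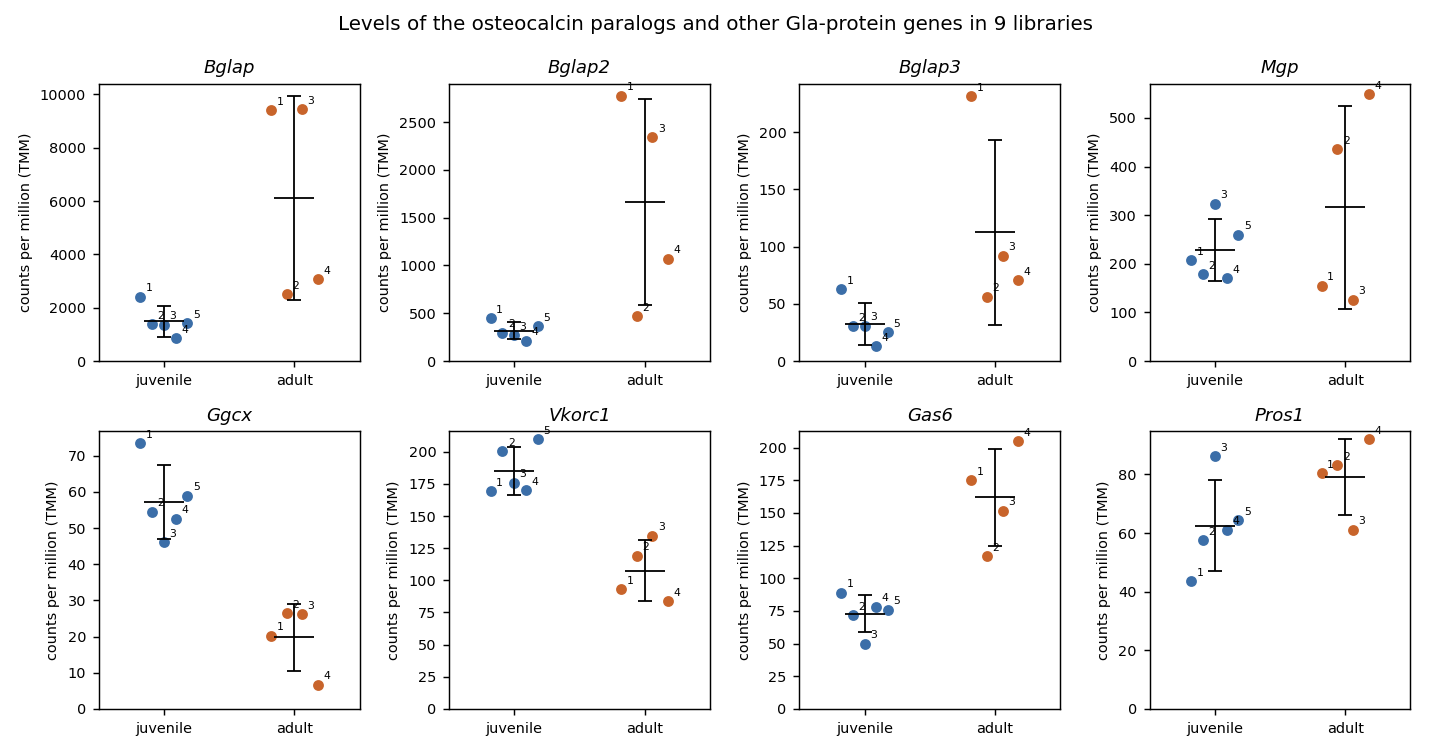
Level of each gene in CPM (vertical axes, linear, TMM scaled) in the 5 juvenile and 4 adult libraries. Each dot is a library with its replicate number, and the bar and whiskers are the mean and SD. The adult libraries lay above the juvenile ones for Bglap, Bglap2 and Gas6 and below them for Ggcx and Vkorc1.

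The 3 osteocalcin genes lie in a row on the minus strand of chromosome 3 of GRCm38, Bglap at chr3:88383501-88384464 (ENSMUSG00000074483), Bglap2 at chr3:88377736-88378699 (ENSMUSG00000074486) and Bglap3 at chr3:88368616-88372743 (ENSMUSG00000074489). Their coding sequences are each 288 bases long and differ at 13 positions. Bglap and Bglap2 differ at 4 bases (98.61% identity), Bglap2 and Bglap3 at 9 (96.88%) and Bglap and Bglap3 at 13 (95.49%). The longest stretch without a difference is 241 bases between Bglap and Bglap2 and 81 bases between Bglap3 and either of them. The coding sequences from the GENCODE transcripts are shown because they are part of what sets how far reads can be assigned. The untranslated parts of the transcripts, not shown, also bear on it. Every position at which any paralog differs is in capitals.
Bglap: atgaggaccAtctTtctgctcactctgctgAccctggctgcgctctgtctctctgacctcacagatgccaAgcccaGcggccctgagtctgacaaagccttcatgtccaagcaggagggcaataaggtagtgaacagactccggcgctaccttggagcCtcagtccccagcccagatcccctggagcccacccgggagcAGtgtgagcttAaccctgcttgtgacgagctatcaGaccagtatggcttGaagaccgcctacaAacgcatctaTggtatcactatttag
Bglap2: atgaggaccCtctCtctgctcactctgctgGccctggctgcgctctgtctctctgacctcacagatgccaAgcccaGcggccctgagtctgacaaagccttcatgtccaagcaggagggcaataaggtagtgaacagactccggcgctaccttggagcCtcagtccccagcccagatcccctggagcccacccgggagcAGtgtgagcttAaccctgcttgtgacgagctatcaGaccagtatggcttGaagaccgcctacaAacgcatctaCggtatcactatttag
Bglap3: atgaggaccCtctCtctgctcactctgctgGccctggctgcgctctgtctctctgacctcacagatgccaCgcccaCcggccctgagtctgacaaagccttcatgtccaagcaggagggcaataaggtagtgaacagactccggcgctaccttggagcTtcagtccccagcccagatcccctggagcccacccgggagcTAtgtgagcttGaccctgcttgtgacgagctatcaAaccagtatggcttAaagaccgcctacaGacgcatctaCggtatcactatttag

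Reads were 75 bases long. Of the 366 windows of that length in the Bglap transcript, 66.12% also occur in Bglap2 and 3.01% in Bglap3. For Bglap2, 73.3% of 397 windows occur in another paralog, and for Bglap3 9.33% of 643 windows. None of these windows occurs in a transcript of a gene outside the paralogs, 0 in each case. The counts of Bglap and Bglap2 are therefore uncertain as single values, since the handling in counting of reads that match several genes is not given in the sources used here, whereas their sum does not depend on which paralog a shared read was given to. If a shared read was counted for each paralog, or dropped, the level of the sum is uncertain too.

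The summed paralogs measured 2931, 1707, 1667, 1085 and 1804 CPM in juvenile libraries 1 to 5 and 12416, 3039, 11887 and 4218 CPM in adult libraries 1 to 4. All adult libraries were above all juvenile libraries, with libraries 1 and 3 again well above libraries 2 and 4. The sum was 4.29-fold higher in adult mice (log2 fold change 2.10, SE 0.40, edgeR adjusted p = 0.0134), in a table where 3.87% of genes passed. The paralogs took 0.0989% to 0.283% of all counts in juvenile and 0.313% to 1.33% in adult libraries. Without juvenile libraries 4 and 5 the log2 fold change was 1.91 with an edgeR adjusted p of 0.14.

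The shares of the paralogs in the sum overlapped between the ages. Bglap2 made up 15.25, 17.41, 16.29, 19.56 and 20.36% of the sum in juvenile libraries 1 to 5 and 22.34, 15.43, 19.71 and 25.44% in adult libraries 1 to 4. Adult library 2 had nearly the lowest share and adult library 4 the highest, so the ages overlapped. The widest of the 95% Wilson intervals of these shares, that of juvenile library 4, ran from 18.6% to 20.6%. These intervals cover counting error only and treat reads as independent and rightly assigned, which PCR and the shared sequence do not ensure. The mean share was 17.8% ± 2.15 (SD, n = 5) and 20.7% ± 4.24 (SD, n = 4), and did not pass a two-sided exact permutation test (p = 0.206). Its difference of 2.95 percentage points was 1.39 without adult library 4 (exact permutation test, p = 0.464) and 4.72 without adult library 2 (p = 0.0714). Bglap made up 80.5% ± 1.81 and 77.7% ± 4.29 (exact permutation test, p = 0.254), and Bglap3 1.68% ± 0.372 and 1.54% ± 0.518 (exact permutation test, p = 0.683). With 5 libraries against 4 an exact permutation test cannot go below p = 0.0159.

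Several other genes of osteoblasts moved the opposite way. Of the 9 osteoblast markers, 5 were lower in adult mice and 0 were higher, with a median log2 fold change of -1.02. Col1a1 and Col1a2, the chains of type I collagen, had log2 fold changes of -1.37 (SE 0.14, edgeR adjusted p = 0.000426) and -1.25 (SE 0.15, edgeR adjusted p = 0.00109). Ibsp, Sparc and the transcription factor gene Sp7 were the other 3. The markers Runx2, Alpl, Spp1 and Dlx5 had log2 fold changes of -0.62, -0.65, -0.17 and -0.28 and did not pass. The summed level of the 9 markers was 213897, 233096, 210610.03, 263627 and 240089 CPM in juvenile libraries 1 to 5 and 99201, 113662, 103837 and 72482 CPM in adult libraries 1 to 4, with Sparc the most abundant per kilobase and none at 0 in any library. In bulk RNA, fewer osteoblasts and less RNA per osteoblast cannot be told apart.

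**Figure D2:**
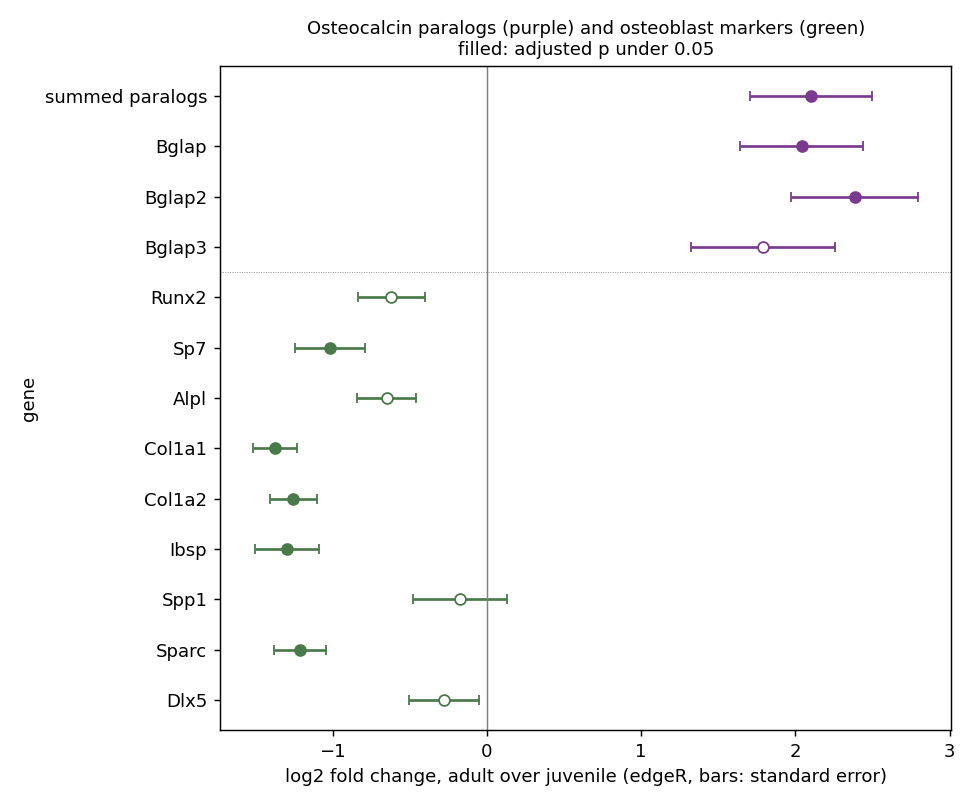
Log2 fold change, adult over juvenile (horizontal axis), of the summed osteocalcin paralogs, each paralog and 9 osteoblast markers (vertical axis), with bars for the standard error and filled points for an edgeR adjusted p under 0.05. The summed paralogs sit at 2.10 and Col1a1 at -1.37.

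Set against the mean log2 level of these markers in the same library, osteocalcin was -0.35, -1.28, -1.15, -2.02 and -1.07 in juvenile libraries 1 to 5 and 2.40, 0.28, 2.51 and 1.40 in adult libraries 1 to 4, as log2 differences. Every juvenile value was below 0 and every adult value above 0, with adult library 2 closest to the juvenile range. The adult mean of 1.65 ± 1.04 (SD, n = 4) exceeded the juvenile mean of -1.17 ± 0.59 (SD, n = 5) by 2.82 (p = 0.0159 in a two-sided exact permutation test, which cannot go lower with these group sizes). The 3 juvenile libraries with the Xist pattern against the 4 adult ones gave 2.57, where p = 0.0571 is the lowest an exact permutation test can reach.

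**Figure D3:**
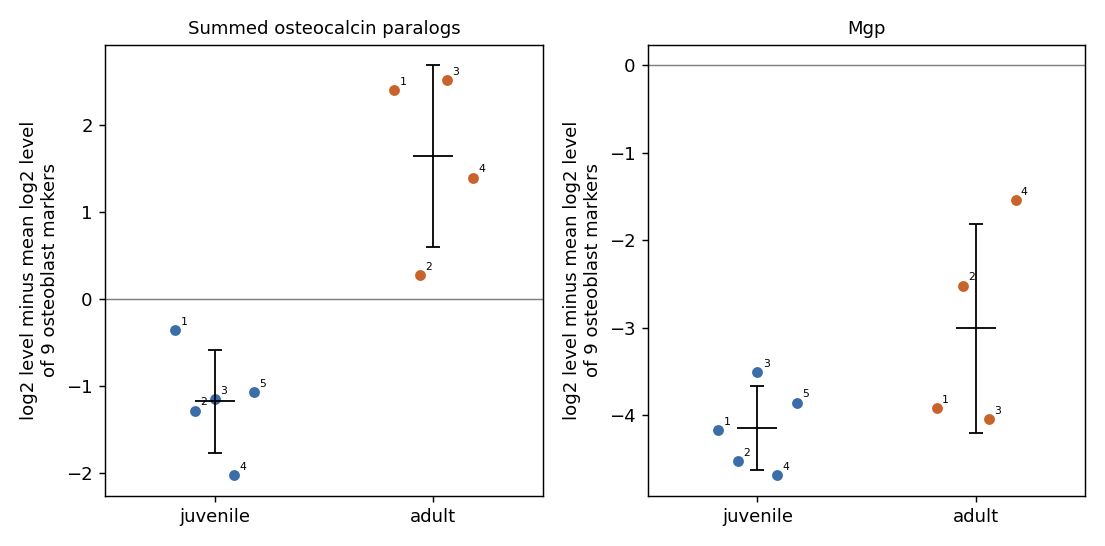
Log2 level of the summed osteocalcin paralogs and of Mgp minus the mean log2 level of the 9 osteoblast markers in the same library (vertical axes, log2 units), with each dot a library, its replicate number, and the mean and SD as bar and whiskers. Osteocalcin lay above 0 in the 4 adult libraries and below 0 in the 5 juvenile ones, while the values of Mgp overlapped.

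Osteocyte markers did not move as a block. Of 5, Fgf23 had 0 counts in every library, Dmp1 was lower in adult mice (log2 fold change -1.93, SE 0.25, edgeR adjusted p = 0.00203) and Sost, which encodes the WNT inhibitor sclerostin of mature osteocytes, had 24, 0, 28, 1 and 8 counts in juvenile libraries 1 to 5 and 454, 78, 214 and 86 counts in adult libraries 1 to 4. Sost did not pass the threshold (edgeR adjusted p = 0.0881). Mepe and Phex did not pass either (log2 fold change 1.26 and -0.34, edgeR adjusted p = 0.587 and 0.609). Of all libraries, Mepe was highest in juvenile library 4 (57.3 CPM) and Phex in juvenile library 2 (391 CPM). The summed level of the list was 1873, 2422, 1778, 1287 and 1098 CPM in juvenile libraries 1 to 5 and 650.1, 656, 658 and 585 CPM in adult libraries 1 to 4, with Dmp1 its most abundant gene per kilobase. By RNA hybridisation on sections, the authors found Dmp1 of this region mainly in osteoblasts, and Sost in cortical bone but not at the OF.

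Matrix Gla protein, whose gene is expressed by chondrocytes and vascular smooth muscle cells as well as in bone, is encoded by Mgp (chr6:136872435-136875823, minus strand, ENSMUSG00000030218). Mgp measured 207, 179, 324, 170.4 and 260.3 CPM in juvenile libraries 1 to 5 and 155, 436, 126 and 549 CPM in adult libraries 1 to 4. Adult libraries 2 and 4 were the highest of the 9 and adult libraries 1 and 3 the lowest, whereas for osteocalcin libraries 1 and 3 were the highest. Its mean was 228 ± 64 CPM (SD, n = 5) and 316 ± 209 CPM (SD, n = 4), and the difference was within the spread between libraries (log2 fold change 0.47, SE 0.39, edgeR adjusted p = 0.613). With each library left out the log2 fold change lay between 0.08, without adult library 4, and 0.75, without adult library 3, and did not pass (edgeR adjusted p between 0.297 and 0.954). Relative to the osteoblast markers Mgp was -4.17, -4.53, -3.51, -4.69 and -3.86 in juvenile libraries 1 to 5 and -3.92, -2.52, -4.05 and -1.55 in adult libraries 1 to 4, as log2 differences. The ages overlapped, and the difference of 1.14 did not pass the exact permutation test (p = 0.111). It was 0.66 without adult library 4 (exact permutation test, p = 0.25), and against Col1a1 alone it was 1.62 and passed (exact permutation test, p = 0.0476).

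Chondrocyte markers stood apart in adult library 2. Their summed level was 543, 471, 995, 363 and 367 CPM in juvenile libraries 1 to 5 and 1054, 4755, 596 and 751 CPM in adult libraries 1 to 4, and 2 of the 7 tested, Col2a1 and Comp, were higher in adult mice, with Col10a1 the most abundant per kilobase in juvenile (94 CPM) and Col2a1 in adult mice (138 CPM). In adult library 3, Sox9, Acan, Col9a1, Matn1, Matn3 and Hapln1 were at 0 counts. Of the 8 pericyte and smooth muscle markers, 0 of the 7 tested passed, and their summed level was 541, 537, 387, 434 and 481 CPM in juvenile libraries 1 to 5 and 708, 465, 371 and 641 CPM in adult libraries 1 to 4, with Pdgfrb the most abundant per kilobase in juvenile (mean 37 CPM) and Rgs5 in adult mice (mean 31.7 CPM). In adult libraries 1 to 4, Rgs5 measured 38.4, 1.54, 21.1 and 65.8 CPM per kilobase. Pdgfrb measured 30.3, 36.2, 23.4 and 32.6 CPM per kilobase there and was above Rgs5 in adult libraries 2 and 3. Myh11 was at 0 in 6 libraries and Acta2 in adult library 2. Bmp2 and Bmp4, the BMP ligands that MGP binds, had a median log2 fold change of -1.05 and did not pass (edgeR adjusted p = 0.481 and 0.204), Bmp4 being the more abundant per kilobase. Their part in the values of Mgp was not tested.

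Of the TAM ligands, Gas6 rose and Pros1 did not pass. Gas6 (chr8:13465374-13494490, minus strand, ENSMUSG00000031451) measured 88.8, 71.6, 49.8, 78.3 and 75.9 CPM in juvenile libraries 1 to 5 and 175, 117, 152 and 205 CPM in adult libraries 1 to 4. All adult libraries lay above all juvenile ones, with adult library 4 highest and library 2 lowest of the adults. The level was 2.22-fold higher in adult mice, with means of 72.9 ± 14.4 CPM (SD, n = 5) and 162 ± 37.1 CPM (SD, n = 4) (log2 fold change 1.15, SE 0.22, edgeR adjusted p = 0.0135). With the replicate number as a block, Gas6 did not pass (log2 fold change 1.17, edgeR adjusted p = 0.0686). Pros1 (chr16:62854307-62929346, plus strand, ENSMUSG00000022912), the gene of protein S, measured 43.5, 57.5, 86.2, 61.2 and 64.4 CPM in juvenile libraries 1 to 5 and 80.5, 83.2, 61.1 and 92.1 CPM in adult libraries 1 to 4. The ages overlapped, juvenile library 3 being above adult libraries 1, 2 and 3 (log2 fold change 0.34, SE 0.23, edgeR adjusted p = 0.526). Per kilobase, Gas6 had a mean of 28.6 CPM in juvenile and 63.6 CPM in adult mice, and Pros1 of 15.3 and 19.4 CPM. Gas6 shares 34 exon bases with Tmem255b on the other strand, a gene with 3 counts in all 9 libraries together.

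None of the 3 receptor genes passed, 0 in either direction, with a median log2 fold change of -1.07. Mertk, the most abundant per kilobase in juvenile mice (9.51 CPM), had a log2 fold change of -1.07 (edgeR adjusted p = 0.183), and Axl, the most abundant in adult mice by the mean (6.22 CPM), of 0.77 (edgeR adjusted p = 0.735). In adult libraries 1 to 4, Axl measured 11.3, 0.232, 0.787 and 12.5 CPM per kilobase. Mertk measured 5.62, 1.93, 4.62 and 5.95 CPM per kilobase there and was above Axl in adult libraries 2 and 3. Tyro3, named after its values were seen, had 58, 91, 66, 21 and 56 counts in juvenile libraries 1 to 5 and 0, 0, 16 and 4 counts in adult libraries 1 to 4 (edgeR adjusted p = 0.0868).

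Neutrophil and erythroid markers were higher in adult mice, as were Gas6 and osteocalcin, but not each of them in every adult library. All 7 neutrophil markers were higher in adult mice, and their summed level was 5.8, 31, 9.36, 64 and 17.2 CPM in juvenile libraries 1 to 5 and 4301, 91.2, 3473 and 3480.2 CPM in adult libraries 1 to 4, with S100a9 the most abundant per kilobase. Adult library 2, the adult library with the least osteocalcin and Gas6, was far below the others, with 0 counts of Elane and 2 of Mpo, whose level there was below that of every juvenile library. All 6 erythroid markers were higher, led by Hbb-bs, with a summed level of 2026, 873, 341, 407 and 312 CPM in juvenile libraries 1 to 5 and 6036, 3347, 8609 and 30596 CPM in adult libraries 1 to 4. Klf1 had 0 counts in adult library 1. Of the 5 megakaryocyte markers, 3 were tested and Pf4 was higher, with a summed level of 26.3, 16.9, 23.8, 12.9 and 18.6 CPM in juvenile libraries 1 to 5 and 605, 97.9, 62.4 and 4211 CPM in adult libraries 1 to 4, and Gp9 was at 0 in all juvenile libraries. The part of these cells in the results for Gas6 and osteocalcin was not tested.

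The other lists were mixed. Of the 8 macrophage markers Csf1r was higher, with a summed level of 811, 664, 669, 485 and 600.3 CPM in juvenile libraries 1 to 5 and 1677, 1011, 1163 and 1384 CPM in adult libraries 1 to 4, Cd68 being the most abundant per kilobase. Most of this sum came from Csf1r (means 324 and 662 CPM in juvenile and adult mice) and Cd68 (300 and 438 CPM). C1qa, C1qb and C1qc had log2 fold changes of 4.61, 4.09 and 4.02 and did not pass (edgeR adjusted p = 0.0815, 0.0513 and 0.097). In adult library 2 they had 1, 54 and 0 counts. Of the 7 osteoclast markers Acp5 and Atp6v0d2 were higher, with a summed level of 11327, 13849, 10899, 8863 and 9749 CPM in juvenile libraries 1 to 5 and 18164, 17750.1, 20471 and 13670.5 CPM in adult libraries 1 to 4, Acp5 being the most abundant. Of the 7 genes of adipogenic marrow stroma Cxcl12 was higher and Lepr lower, with a summed level of 472, 465, 454, 311 and 451 CPM in juvenile libraries 1 to 5 and 943, 426, 1063 and 1196 CPM in adult libraries 1 to 4. In this list Lepr was the most abundant per kilobase in juvenile mice (20.2 CPM) and Cxcl12, the gene of a chemokine of marrow stroma, in adult mice (72.9 CPM). All 9 endothelial markers, which bear on the label of the samples, had counts in every library, and 0 passed the edgeR test, with a median log2 fold change of 0.04 and a summed level of 946, 855, 643, 628 and 883 CPM in juvenile libraries 1 to 5 and 854, 874, 764 and 787 CPM in adult libraries 1 to 4, Egfl7 being the most abundant per kilobase. Each of these sums was below every sum of the osteoblast markers, though Egfl7 lay above the osteoblast markers Sp7, Runx2 and Dlx5 in adult mice by mean CPM. Of the 5 fibroblast genes 3 were tested and 0 passed, with a summed level of 1377, 1869, 1914, 2483 and 2300.1 CPM in juvenile libraries 1 to 5 and 1540, 1379, 1874 and 1019.6 CPM in adult libraries 1 to 4, and Dcn the most abundant. Of the 7 B cell genes 4 were tested and 0 passed, with a summed level of 7.25, 31.4, 5.96, 0.38 and 1.06 CPM in juvenile libraries 1 to 5 and 34.3, 1.67, 152 and 44.5 CPM in adult libraries 1 to 4, Vpreb1 being the most abundant per kilobase in juvenile (1.92 CPM) and Cd79a in adult mice (15 CPM).

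Both enzymes of the vitamin K step were lower in adult mice. Ggcx (chr6:72414308-72430712, plus strand, ENSMUSG00000053460) measured 73.4, 54.6, 46.2, 52.6 and 58.9 CPM in juvenile libraries 1 to 5 and 20.2, 26.4, 26.2 and 6.64 CPM in adult libraries 1 to 4. All adult libraries were below all juvenile ones, and adult library 4 was the lowest (log2 fold change -1.52, SE 0.38, edgeR adjusted p = 0.0428). Leaving out any library other than adult library 2 or 4 put the edgeR adjusted p above 0.05, between 0.0584 and 0.099. Vkorc1 (chr7:127893063-127895617, minus strand, ENSMUSG00000096145) measured 169.5, 201, 176, 170.1 and 209.6 CPM in juvenile libraries 1 to 5 and 92.9, 119, 135 and 83.7 CPM in adult libraries 1 to 4. Again the ages did not overlap (log2 fold change -0.78, SE 0.19, edgeR adjusted p = 0.0357), but leaving out any library other than adult library 2 or 3 gave an edgeR adjusted p between 0.055 and 0.0926. The log2 fold changes stayed between -1.67 and -1.22 for Ggcx and between -0.89 and -0.66 for Vkorc1 with each library left out. Scaled by library totals in place of TMM, both lay above 0.05 (edgeR adjusted p = 0.052 for Ggcx and 0.0679 for Vkorc1). With the replicate number as a block neither passed (log2 fold change -1.65, edgeR adjusted p = 0.135 for Ggcx and -0.76, edgeR adjusted p = 0.134 for Vkorc1). Vkorc1 shares 401 exon bases with Gm21974 on the same strand, which had 0 counts.

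Per kilobase, Vkorc1 at 220.4 CPM in juvenile and 128 CPM in adult mice was well above Ggcx at 17.6 and 6.13 CPM. Of the 5 other genes of the vitamin K cycle 1 was lower and 0 were higher, with a median log2 fold change of -0.16. The lower gene was Calu, whose product calumenin resides in the endoplasmic reticulum and inhibits the carboxylation system, and it was also the most abundant of the list per kilobase (log2 fold change -0.82, SE 0.18, edgeR adjusted p = 0.0217). Furin, a protease that can cleave propeptides, had a log2 fold change of -0.45 and did not pass (edgeR adjusted p = 0.336).

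Of the 11 genes of other Gla proteins, 10 had any count, 3 were tested and 0 passed, with a median log2 fold change of -0.51. Genes of the clotting factors and of protein C and protein Z had few counts, at most 2 in a library for F2, 3 for F9, 9 for Proz, 20 for F10 and 32 for F7. Proc was at 0 counts throughout, which allows a level of up to 0.371 to 0.618 CPM when scaled by library totals without TMM. The most abundant per kilobase was Prrg2 in juvenile (6.77 CPM) and Ucma, the gene of a Gla protein of cartilage, in adult mice (13 CPM). Ucma had 0, 0, 11, 0 and 0 counts in juvenile libraries 1 to 5 and 0, 275, 0 and 1 counts in adult libraries 1 to 4. Its counts came almost wholly from adult library 2, the library with the most chondrocyte marker counts. Gprc6a and Gpr158, proposed receptors of osteocalcin, had 0 counts in all 9 libraries.

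The Bglap promoter is shown because osteocalcin rose while 5 of the 9 osteoblast markers fell, with the 250 bases before the transcription start from RefSeq for GRCm38.p6 (chr3:88384467-88384716, minus strand) and every motif match in capitals. Promoters matched for 6 of the 8 genes. The motifs searched on both strands were the core of the RUNX2 site (ACCACA), the CCAAT box, the E-box (CANNTG), the TATA box (TATAAA) and the AP-1 site (TGANTCA).
Bglap promoter: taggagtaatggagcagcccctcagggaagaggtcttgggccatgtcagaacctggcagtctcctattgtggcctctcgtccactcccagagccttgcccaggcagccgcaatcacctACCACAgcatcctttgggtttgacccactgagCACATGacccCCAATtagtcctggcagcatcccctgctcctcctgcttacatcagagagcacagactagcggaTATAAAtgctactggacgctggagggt

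This window held 1 match each of the RUNX2 core, the CCAAT box, the E-box and the TATA box, and 0 of the AP-1 site, and no match overlapped another. Of all 32851 promoters of the same length, 14.05% held the RUNX2 core, 33.85% the CCAAT box, 66.22% the E-box, 12.37% the TATA box and 6.75% the AP-1 site. The RUNX2 core ends 127 bases, the E-box 95, the CCAAT box 86 and the TATA box 22 bases before the start. No ACCACA was found in the promoters of Bglap3, Ggcx, Vkorc1, Gas6 and Pros1, 0 in each. Of the 8 genes of transcription factors acting on the osteocalcin promoter, 7 were tested, 3 were lower in adult mice and 0 higher, with a median log2 fold change of -0.62. Those were Atf4, the most abundant per kilobase (log2 fold change -0.62, SE 0.15, edgeR adjusted p = 0.0398), Sp7 (log2 fold change -1.02, SE 0.23, edgeR adjusted p = 0.027) and Dlx3 (log2 fold change -1.55, SE 0.26, edgeR adjusted p = 0.00775). Runx2 and Dlx5 did not pass (log2 fold change -0.62 and -0.28, edgeR adjusted p = 0.149 and 0.61). Vdr and Cebpb had positive log2 fold changes of 0.47 and 0.10 and did not pass either (edgeR adjusted p = 0.386 and 0.9). Msx2 had 69, 18, 0, 20 and 0 counts in juvenile libraries 1 to 5 and 0, 0, 0 and 0 counts in adult libraries 1 to 4. Over all pathway lists, 32 genes, 21 were tested, 4 were lower and 0 higher.

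Among 5128 tested protein-coding genes, those with the pattern most like that of the summed paralogs over the 9 libraries were Mif (r = 0.98, rho = 0.93), Myl12b (r = 0.98, rho = 0.90), Sdf2l1 (r = 0.98, rho = 0.93), Cmtm7 (r = 0.95, rho = 0.85) and Lsm6 (r = 0.95, rho = 0.90). Mif encodes a cytokine and Sdf2l1 a chaperone partner of the endoplasmic reticulum. Within the ages, after removing each mean, the r of these 5 lay between 0.86 and 0.94. For Mgp they were Rapgef6 (r = 0.92), Wapl (r = 0.91), Rabep1 (r = 0.89), Rpl7a (r = 0.88) and Tax1bp1 (r = 0.87), and for Gas6 Psme1 (r = 0.98), Txnip (r = 0.96), Plagl1 (r = 0.96), Rasgrp2 (r = 0.95) and Etfrf1 (r = 0.94). For Pros1 they were R3hdm1 (r = 0.89), Tipin (r = 0.86), Luzp1 (r = 0.86), Ptpn11 (r = 0.86) and Cflar (r = 0.85). These are descriptions over 9 libraries that share the ages, with no test, and genes picked as the highest are high by that choice.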

How the data were processed

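Capillaries with surrounding cells were cut by LMD from the OF of juvenile (n = 5) and adult (n = 4) mice, and each mouse gave 1 library (SMART-Seq v4, poly-A dependent, with PCR, whose reads are not independent molecules, paired-end reads of 75 bases). Per the labels and the methods, the authors mapped reads to mm10 (GRCm38) with TopHat2 and Bowtie2 at their defaults and deposited whole-number counts per Ensembl gene, with featureCounts named in the processing notes. The strand, multi-mapping and annotation settings of the counting are not given in the sources used here, so reads shared by paralogs may have been split, counted or dropped, and genes on opposite strands cannot be told apart.

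Symbols and positions came from GENCODE M21 of GRCm38, in which 96.2% of the listed genes matched. Ages were compared with edgeR 4.0.16 (R 4.3.3, filterByExpr, TMM, quasi-likelihood test, Benjamini-Hochberg over all 13418 genes, threshold 0.05), once per gene and once with the 3 paralogs summed. A prior count of 2 was added for log2 CPM. Shares and ratios used two-sided exact permutation tests (scipy 1.17.1). No library was a copy of another.

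The genes named are the 8 members, the genes of the pathway lists with an adjusted p under 0.05 or the highest level per kilobase at either age, and the 5 most correlated genes with a mean log2 CPM of at least 5, apart from those given as exceptions. The members and lists were chosen with earlier results of these data known. Alternatives covered the scaling, DESeq2 1.42.0, limma 3.58.1 voom, filters, the replicate block, genes or libraries left out, the paralogs summed and the osteoblast reference. Figures were drawn with matplotlib 3.10.9. Proteins were not analysed here, and some genes of the lists are not reported here and were left out of their counts and sums.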

Additional observations from a re-analysis of the deposited data

How the results depend on the processing

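The log2 fold change of the summed paralogs stayed between 1.93 and 2.26 over the 10 alternatives that summed paralogs in all libraries, each past the threshold (edgeR, DESeq2 or limma adjusted p between 0.00051 and 0.04), and between 1.81 and 2.39 with each library left out. In the 7 libraries where Xist counts exceeded those of Y-linked genes it was 1.91 (edgeR adjusted p = 0.14), and the count of genes past the threshold fell from 520 to 73, with fewer libraries. Bglap and Bglap2 alone gave 2.04 and 2.38, both past the threshold. Bglap3 alone gave 1.79, short of the threshold by edgeR (adjusted p = 0.0514), but past it with the upper quartile, library totals, DESeq2, no filter, or at least 10 counts in every library (adjusted p between 0.00431 and 0.0792 over its alternatives with all libraries). With each library left out, Bglap3 passed without juvenile library 1 or adult library 2 only, and without adult library 1 its log2 fold change fell to 1.18 (edgeR adjusted p between 0.0286 and 0.136 over the 9). DESeq2 called 1492 genes. With each library left out, 262 to 651 genes passed, and 3 to 6 of the 8 Gla-protein genes and enzymes; leaving out juvenile library 2, 3, 4 or 5 gave 332, 293, 275 and 262 genes. Among the 7 libraries, 0 of the 8 passed. With library totals the median log2 fold change of all genes moved to 0.18, 70.9% of calls were higher in adult mice against 48.7%, and Ggcx and Vkorc1 had edgeR adjusted p-values of 0.052 and 0.0679, while no filter put Vkorc1 at 0.0559 (ranges over its alternatives 0.00165 to 0.134, and for Ggcx 0.00272 to 0.135).

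The share of Bglap2, 2.95 percentage points higher in adult mice, did not pass with any library left out, but moved to 1.39 points without adult library 4 (exact permutation test, p = 0.464) and 4.72 without adult library 2 (p = 0.0714). Osteocalcin relative to osteoblast markers stayed between 2.53 and 3.28 with each library left out and was 2.57 in the 7 libraries (exact permutation test, p = 0.0571). Mgp relative to Col1a1 alone rose by 1.62 and passed the exact permutation test (p = 0.0476), and with each library left out lay between 0.66 and 1.49 against all the markers. The cause of these differences was not tested.

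Replicate numbers do not pair the mice. Same-numbered libraries of the ages correlated at 0.0268, -0.0318, 0.0187 and 0.0303 in their deviations from the age means. With the replicate block, 89 genes passed by edgeR, among them 2 of the 8, Bglap and Bglap2, and the summed paralogs had a log2 fold change of 1.93 (adjusted p = 0.04), while Gas6, Ggcx and Vkorc1 had log2 fold changes of 1.17, -1.65 and -0.76 (adjusted p = 0.0686, 0.135 and 0.134).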
